A study of Rattus norvegicus with 79 samples.

Results

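Lpl, Apoe, Hmgcs1, Fdps and Fdft1 are genes of lipoprotein handling and of cholesterol synthesis, and their messenger RNA was followed in the CA1 field of the rat hippocampus. Members were all probe sets whose single gene symbol in the platform's annotation is one of these 5 names. Of 8799 probe sets on the array, with 4736 named genes, 12 met this rule: 3 for Lpl, 2 for Apoe, 3 for Fdps and 4 for Fdft1. No probe set carried the symbol Hmgcs1, so this gene is not analysed here and 4 of the 5 genes are described. All 12 probe sets passed the filter on low signal, which kept 5244 probe sets.

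The animals were male Fischer 344 rats, spelled Fisher-344 in the labels, and each gave 1 array of RNA punched from the CA1 cell layer, 24 hours after the last trial in a water maze. Ages were 3 months (young) and 24 months (aged). Cage controls never swam, and yoked controls swam without any platform. Visible platform rats swam to a platform in sight, and for hidden platform rats its place had to be learned. Among young rats there were 3 cage controls, 6 yoked, 4 visible and 6 hidden platform animals. Among aged rats there were 5 cage controls, 8 yoked, 8 visible platform, and 23 hidden platform animals, which had been classed as unimpaired (13) or impaired (10) learners. Another 16 arrays of aged rats trained with the hidden platform bear a letter B, unexplained in the labels, which kept them out of every comparison of the ages. All rats were of 1 sex and strain, and all RNA went through 2 rounds of amplification before hybridisation.

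Circulating lipoproteins scarcely enter the brain, which therefore makes its own cholesterol from acetyl units through the mevalonate pathway. Hmgcs1 makes the precursor of mevalonate, Fdps joins isoprene units to farnesyl diphosphate, and Fdft1, squalene synthase, commits farnesyl diphosphate to sterols. The sterol-sensing factor SREBP-2 switches these enzymes on together when cell sterol is low. Apoe, released mainly by astrocytes, carries cholesterol and other lipids between cells of the brain. Lpl, lipoprotein lipase, frees fatty acids from lipoprotein triglyceride, and in the hippocampus it is made by pyramidal neurons among other cells.

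The promoters of Fdps and Apoe are shown because both genes had a probe set that differed with age in cage rats, and because both had an entry in the RefSeq promoter table (GRCr8). Lpl and Fdft1 had none. Each sequence is the 250 bases before a transcription start, read 5′ to 3′ on the gene's strand. Capitals mark every CCAAT box (CCAAT, or ATTGG for the other strand) and GC box (GGGCGG, or CCGCCC for the other strand).
Fdps, chr2:176804817-176805066, minus strand: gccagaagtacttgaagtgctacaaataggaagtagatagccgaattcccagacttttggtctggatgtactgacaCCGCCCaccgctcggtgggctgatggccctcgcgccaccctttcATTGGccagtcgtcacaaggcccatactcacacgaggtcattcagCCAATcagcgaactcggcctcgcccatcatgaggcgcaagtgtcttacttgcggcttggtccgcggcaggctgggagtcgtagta
Apoe, second of 3 listed starts, chr1:88484700-88484949, minus strand: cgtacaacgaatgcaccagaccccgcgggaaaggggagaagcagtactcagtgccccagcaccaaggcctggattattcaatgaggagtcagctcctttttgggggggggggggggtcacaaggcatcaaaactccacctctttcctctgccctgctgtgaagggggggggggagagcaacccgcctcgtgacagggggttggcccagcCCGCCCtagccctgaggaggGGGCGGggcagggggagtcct
The Fdps promoter held 2 CCAAT boxes, at 130 and 85 bases before the start, and 1 GC box at 174 bases. The window before the second Apoe start held 2 GC boxes, at 41 and 21 bases before that start, and no CCAAT box. It was picked for printing after all 3 Apoe windows had been searched. The window of the first start held neither motif, and that of the third, which overlaps the printed one, held 2 GC boxes at 220 and 200 bases and 1 CCAAT box at 176 bases. The motif TATAAA was in none of these 4 windows. Hmgcs1, which is not analysed here, also had 1 entry. Its window held TATAAA at 62 bases before the start, 4 GC boxes and 2 CCAAT boxes. Of 33469 promoters in the table cut to the same length, 34.0% held a CCAAT box, 30.5% a GC box and 12.9% TATAAA on either strand. A match of letters is a description and was not tested as a binding site.

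Array quality differed between groups. The median Spearman correlation of an array with the other 78 was under 0.85 on 14 of 79 arrays, called low-correlation arrays here, and these include 2 of 3 young cage, 2 of 4 young visible and 4 of 8 aged visible arrays but no B array. The 3′ to 5′ ratio, the mean log2 difference between the 3′ and 5′ probe sets of the controls GAPDH and beta-actin, was 0.05, 0.51 and 2.65 on the young cage arrays and 2.76 to 4.96 on the aged cage arrays, without overlap. The 4 CA1 markers tested of 12 listed (Hpca, Nrgn, Pou3f1 and Cnih2) had a summed signal of 18468 to 47169 in young and 2642 to 75996 in aged rats. All were above 0 on every array, and none was called with age. Since the markers tested had passed the filter on mean signal, a signal above 0, here or below, does not show that a cell type was present. Signals below are the deposited linear values. Differences are on the log2(signal + 15) scale, which understates changes of low signals, and ± after a difference is its standard error. Every adjusted p is from limma with Benjamini-Hochberg adjustment over all 5244 probe sets, and a change was called where it was under 0.05.

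With age, Lpl fell and 1 of 2 Apoe probe sets rose, while no probe set of Fdps or Fdft1 passed the test. In the comparison of 44 aged with 19 young rats, adjusted for treatment, 3 of 12 member probe sets were called, against 5.13% of all probe sets tested. The 2 calls for Lpl, on probe sets that share L03294 in their names, were falls (1.93% of all probe sets fell). The call for Apoe was a rise (3.2% rose). The 9 uncalled members had differences between -0.39 and 0.50. These 3 calls were the same in all 10 alternative analyses and after leaving out any 1 of the 63 arrays.

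Lpl was lower in aged than in young rats on the probe set L03294_g_at, its brightest. In young rats the signal was 1376, 2963 and 6908 in the 3 cage controls and 1414, 2819, 3095 and 6795 in the 4 visible platform rats. It was lowest at 1525, median 3575 and highest at 5912 in the 6 yoked rats, and 1039, 1559 and 2816 in the 6 hidden platform rats in the same order. The hidden platform rats thus had the lowest median of the young groups, and the highest 2 values of all came from 1 cage and 1 visible platform rat, both on low-correlation arrays. In aged rats the signal was 465, 1015, 1092, 1191 and 1230 in the 5 cage controls. Lowest, median and highest were 635, 1263 and 1722 in yoked, 644, 1020 and 2430 in visible, 711, 1297 and 3016 in unimpaired, and 828, 1529 and 2839 in impaired rats. In B rats they were 592, 1081 and 1594. Every aged group had a lower median than every young group, and the ranges overlapped except in cage controls. How many of all probe sets separate the cage controls was not counted.

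On this probe set the age difference was -1.03 ± 0.19 (adjusted p = 0.000632), and 36 of 44 aged rats were below the young mean of their treatment. The order of group means ran from aged cage (9.91 ± 0.57 SD, n = 5, log2 scale) through B, aged visible, aged yoked, unimpaired and impaired rats (10.58 ± 0.61 SD, n = 10) to young hidden (10.74 ± 0.58 SD, n = 6), visible, cage and yoked rats (11.64 ± 0.70 SD, n = 6). No neighbours in this order differed by more than the larger of their SDs. The second probe set, L03294_at, fell by 0.80 ± 0.16 on the log2 scale (adjusted p = 0.00113, 40 of 44 aged rats lower). Its group means lay between 8.93 and 9.45 in young and between 8.34 and 8.60 in aged rats. The third, rc_AI237731_s_at, had a difference of -0.32 ± 0.16 that did not pass (adjusted p = 0.230). Within groups, L03294_g_at and L03294_at varied together over the 79 rats (Pearson r = 0.658, Spearman rho = 0.672, permutation test, adjusted p = 6.5e-05 over 13 pairs of probe sets of 1 gene), and rc_AI237731_s_at followed them less closely (r = 0.306 and 0.431, adjusted p = 0.0212 and 0.00026).

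**Figure D1:**
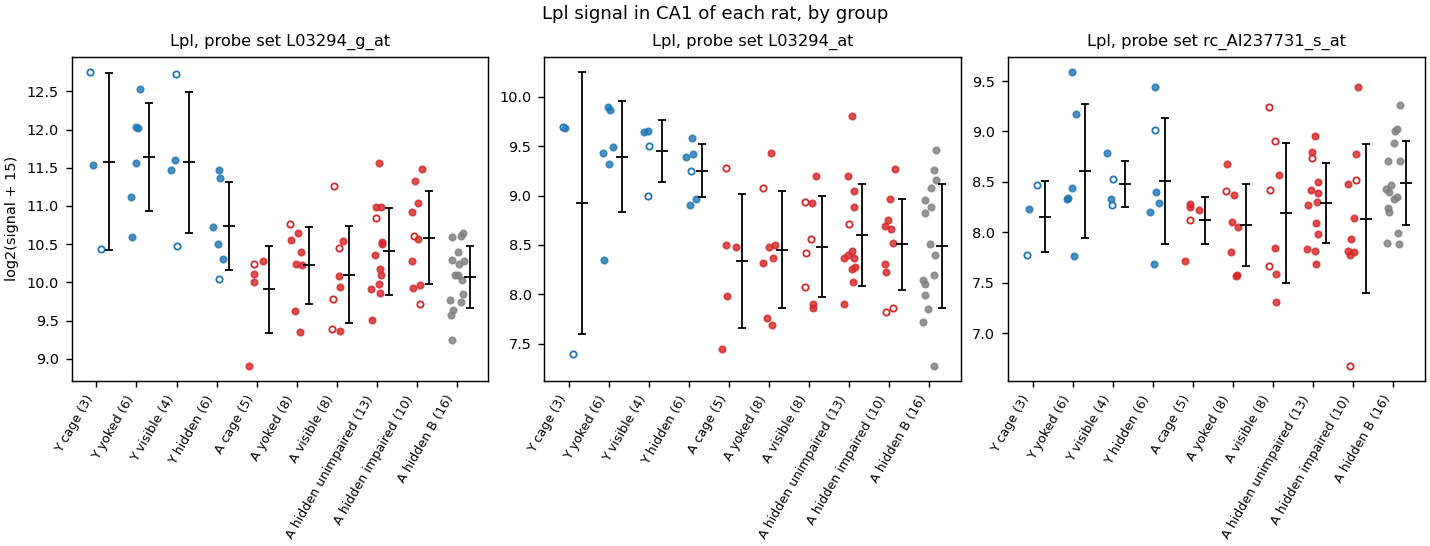
Log2(signal + 15) of the 3 Lpl probe sets, 1 point per rat, by group (Y young, A aged, number of arrays in brackets; blue young, red aged, grey B; open points are low-correlation arrays; bars are mean ± SD). On L03294_g_at the aged group means lie between 9.91 and 10.58 and the young means between 10.74 and 11.64.

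The size of the Lpl difference on L03294_g_at was -1.67 ± 0.47 in cage, -1.42 ± 0.35 in yoked, -1.47 ± 0.39 in visible and -0.25 ± 0.29 in hidden platform rats. Of these only the cage value was called (adjusted p = 0.00983). In yoked, visible and hidden platform rats 0%, 0.0381% and 0% of all probe sets were called. There 2, 3 and 1 of 12 members had an unadjusted p under 0.05 in limma, as had 409, 361 and 106 of all 5244 probe sets. The interaction of age with treatment was not called for Lpl (adjusted p = 0.214 and 0.933 for L03294_g_at and L03294_at), so a dependence on treatment was not shown. On L03294_at the 4 differences were -0.59, -0.94, -0.97 and -0.69, all below 0. In yoked rats both probe sets were called once the low-correlation arrays were left out, where 341 of all 5244 probe sets were called. For L03294_g_at and L03294_at the differences were -1.50 (adjusted p = 0.00338) and -1.03 (adjusted p = 0.0158). Without young yoked rat 59 alone, L03294_g_at differed by -1.63 there (adjusted p = 0.0392).

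Markers of microglia and macrophages and of endothelial and mural cells were read beside Lpl. The CA1 markers, of which none was called with age, are given above. Among 7 tested of 14 listed microglia and macrophage markers, 3 rose with age (C3, C1qb and Ctsd, by 1.25, 1.25 and 1.11), and their summed signal was 2967 to 9110 in young and 2953 to 12545 in aged rats. Among 9 tested of 14 listed endothelial and mural markers none was called, with sums of 2448 to 16503 in young and 1572 to 11888 in aged rats. No marker was at 0. Their part in the fall of Lpl was not tested, and in a tissue punch fewer cells of a type and less RNA per cell cannot be told apart.

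Apoe gave different results on its 2 probe sets. S76779_s_at rose with age by 1.75 ± 0.39 (adjusted p = 0.00419), with 40 of 44 aged rats above the young mean of their treatment. X04979_at, at percentile 99.9 of mean signal on the array, differed by 0.26 ± 0.24 and was not called (adjusted p = 0.60). The 2 probe sets varied together within groups over all 79 rats (r = 0.440, rho = 0.337, permutation test, adjusted p = 0.00439) but not past the threshold over the 65 rats without low-correlation arrays (r = 0.259, adjusted p = 0.0907).

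On S76779_s_at the signal was 101, 355 and 2176 in the 3 young cage controls and 16065, 19031, 20388, 20706 and 22643 in the 5 aged ones. The age groups were far apart there. The 2 lowest young values came from low-correlation arrays, with 3′ to 5′ ratios of 0.51 and 0.05. The 4 young visible platform rats had 419, 2005, 3852 and 10545, and lowest, median and highest were 1831, 4197 and 20480 in young yoked and 3738, 6707 and 20039 in young hidden platform rats. In aged rats they were 546, 16659 and 21242 in yoked, 640, 13043 and 26916 in visible, 8041, 13663 and 26056 in unimpaired, and 1542, 11737 and 19212 in impaired rats. B rats had 8083, 11989 and 17086. Aged values of 546, 640, 1872 and 1542 came from low-correlation arrays with ratios of -0.04, -0.56, 0.83 and -0.31. The young visible value of 419 came from such an array too, with a ratio of 0.005. Whether the ratio sets these low values was not tested. Medians were higher in each of the 6 aged groups than in any young group, while ranges overlapped outside the cage controls. The share of all probe sets that separate the cage controls was not counted.

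In group means S76779_s_at ran from young cage (8.83 ± 2.13 SD, n = 3) over young visible (11.26 ± 1.93 SD, n = 4) to aged cage (14.26 ± 0.18 SD, n = 5). The steps from young cage to young visible (2.43) and up to aged cage (0.48) were the only ones beyond the larger SD of the pair. The age difference was 5.43 ± 0.91 in cage (adjusted p = 0.00014), 1.11 ± 0.67 in yoked, 1.75 ± 0.76 in visible and 0.76 ± 0.57 in hidden platform rats. Only the cage value was called, and the interaction missed the threshold (adjusted p = 0.059). The cage value moved by over 1.5 times, to 2.98, with the 3′ to 5′ ratio in the model (adjusted p = 0.0108) and to 3.11 without low-correlation arrays (adjusted p = 0.0040). The latter sets 1 young cage array against the aged ones, with the spread taken from the other groups, and so says nothing of the variation among young cage rats. Without low-correlation arrays the difference in yoked rats was 1.70 and called (adjusted p = 0.00401), as were 341 of all 5244 probe sets. With the 3′ to 5′ ratio in the model that in visible platform rats was 2.05 and called (adjusted p = 0.0268), as were 14 of all.

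**Figure D2:**
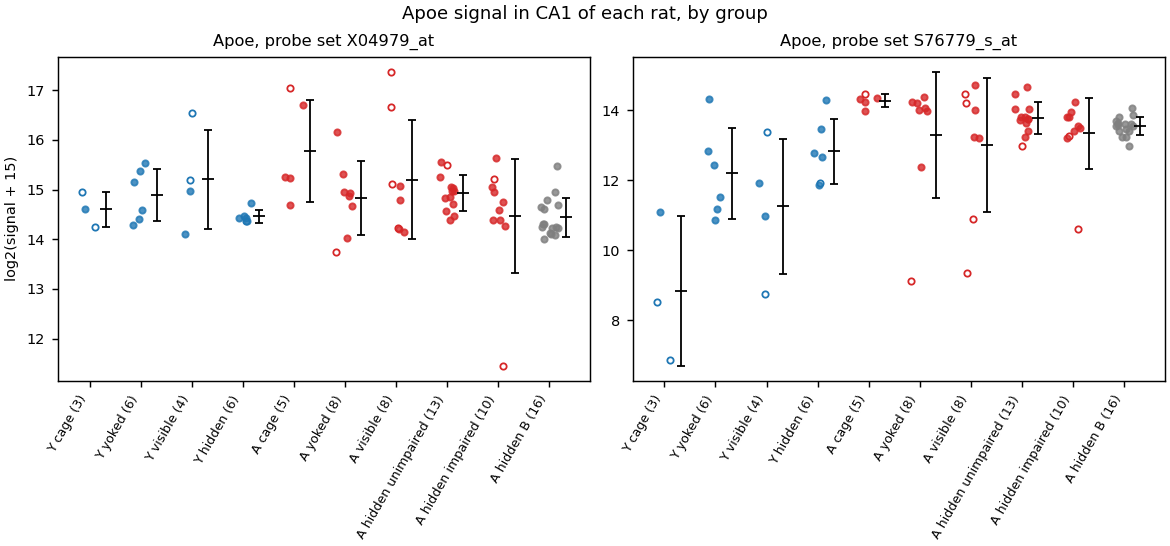
Log2(signal + 15) of both Apoe probe sets, 1 point per rat, by group (Y young, A aged, number of arrays in brackets; blue young, red aged, grey B; open points are low-correlation arrays; bars are mean ± SD). On S76779_s_at young cage rats average 8.83 and aged cage rats 14.26, whereas on X04979_at all group means lie between 14.44 and 15.78.

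Markers of astrocytes, the main source of Apoe in brain, were measured beside it. All 10 tested of 14 listed had an age difference above 0 and 2 were called (Slc4a4 by 0.92 and Aqp4 by 0.96), with a median of 0.33 against -0.06 over all genes tested. Their summed signal was 9040 to 57723 with a median of 41315 in young rats, and 6754 to 77400 with a median of 53138 in aged rats. Clu, a second astrocyte apolipoprotein, had an uncalled difference of 0.57 ± 0.25. No astrocyte marker was at 0, and their part in the Apoe difference was not tested.

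The groups were closer together on X04979_at. Its signal was 19504, 24902 and 31485 in young cage rats and 26360, 38217, 39126, 106112 and 134649 in aged cage rats. The 2 highest aged values stood apart from the other 3, and 1 of them came from a low-correlation array. Over all 79 rats the lowest signal was 2785, in an impaired rat, and the highest 169308, in an aged visible platform rat. Group means ran from B (14.44 ± 0.39 SD, n = 16) to aged cage (15.78 ± 1.03 SD, n = 5), and no neighbours differed by more than the larger SD.

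No probe set of the synthesis enzymes Fdps and Fdft1 passed the test of age over all treatments. For Fdps the differences were -0.39 ± 0.23 on rc_AI180442_at, 0.04 ± 0.21 on M89945mRNA_g_at and -0.17 ± 0.26 on M89945mRNA_at. For Fdft1 they were 0.50 ± 0.30 on M95591_at, 0.25 ± 0.23 on M95591_g_at, -0.04 ± 0.13 on rc_H33426_at and -0.37 ± 0.20 on rc_H33426_g_at. The 7 probe sets had adjusted p between 0.28 and 0.94. The sign of M89945mRNA_g_at turned in 3 alternatives and that of rc_H33426_at in 1, so that neither has a settled direction.

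**Figure D3:**
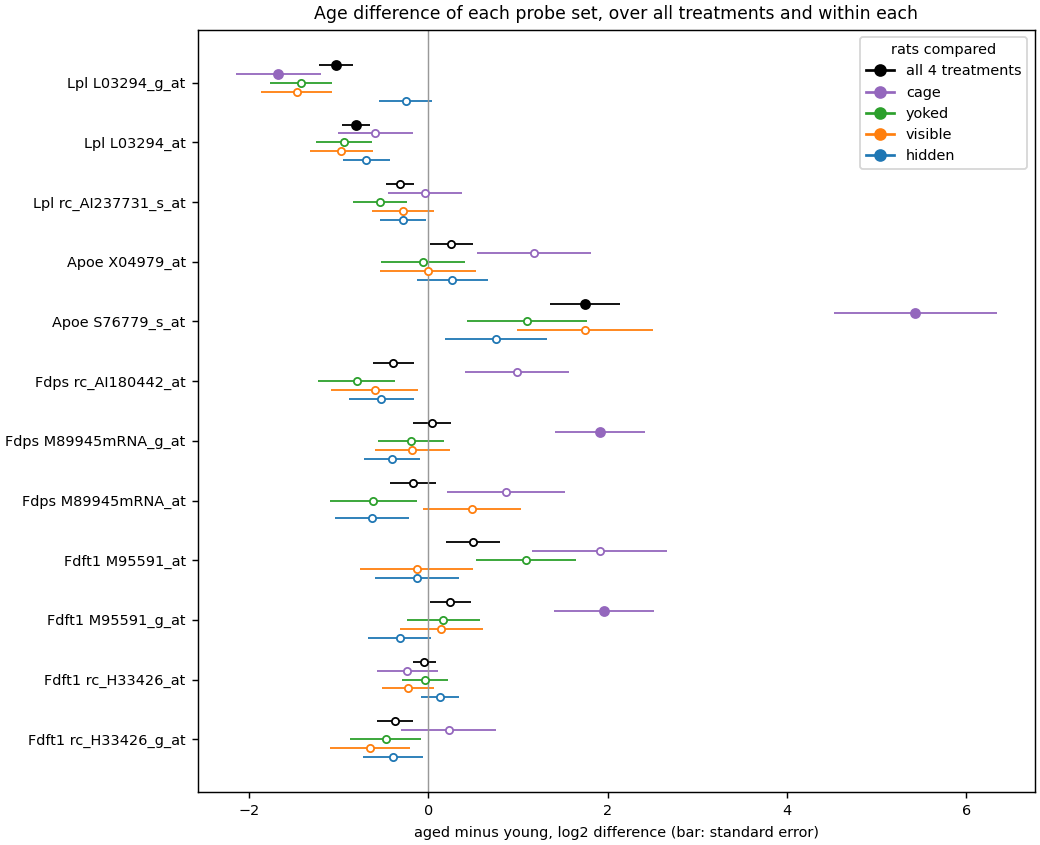
Age difference (aged minus young, log2) of each of the 12 probe sets over all 4 treatments (black) and within each, with its standard error; filled points passed the test. The 2 Lpl probe sets at -1.03 and -0.80 and Apoe S76779_s_at at 1.75 are filled in black, and the cage values spread most widely, from -1.67 to 5.43.

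Both enzymes were higher in aged than in young cage controls on 1 probe set each. Fdps M89945mRNA_g_at had 37.2, 86.5 and 114 in young cage rats and 193, 284, 362, 365 and 446 in aged cage rats. Fdft1 M95591_g_at had 55.5, 66.7 and 98.9 in young and 198, 295, 325, 372 and 502 in aged cage rats. On both, every aged value lay above every young value, but how many of all probe sets separate the cage controls in this way was not counted. The young values were low signals, at which the scale understates a change. Whether they stood above background was not tested, and 2 of the 3 young cage arrays were low-correlation arrays. The differences were 1.92 ± 0.50 for Fdps (adjusted p = 0.00575) and 1.96 ± 0.56 for Fdft1 (adjusted p = 0.0103), higher in 5 of 5 aged rats. With Apoe S76779_s_at and Lpl L03294_g_at these made 4 calls among 12 member probe sets, where 17% of all probe sets were called (9.84% higher, 7.11% lower). The median difference of all probe sets in this comparison was -0.27.

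Other probe sets of the 2 enzymes did not pass in cage rats. Fdft1 M95591_at had 17.4, 39.1 and 119 in young and 38.7, 71.7, 348, 523 and 726 in aged cage rats, 2 of the aged values lying within the young range, and a difference of 1.91 ± 0.75 (adjusted p = 0.065). The remaining 4 had differences between -0.23 and 0.99. With the 3′ to 5′ ratio in the model the Fdps and Fdft1 calls and that of Lpl were lost (adjusted p = 0.117, 0.191 and 0.15), at 1.53, 1.39 and -1.30. Without low-correlation arrays the differences were 2.30 for Fdft1 M95591_g_at, 3.20 for M95591_at, 1.60 for Fdps and -1.71 for Lpl (adjusted p = 0.0451, 0.0413, 0.0928 and 0.0638). Since this leaves 1 young cage array, assumed to vary like the other groups, these p-values do not carry the spread among young cage rats. Leaving out young cage rat 70 alone ended the calls of Fdps (1.54, adjusted p = 0.0727) and Lpl (-1.08, adjusted p = 0.167). M95591_at became called when aged cage rat 98 or 99 or young cage rat 76 was left out, at 2.44, 2.27 and 2.47.

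**Figure D4:**
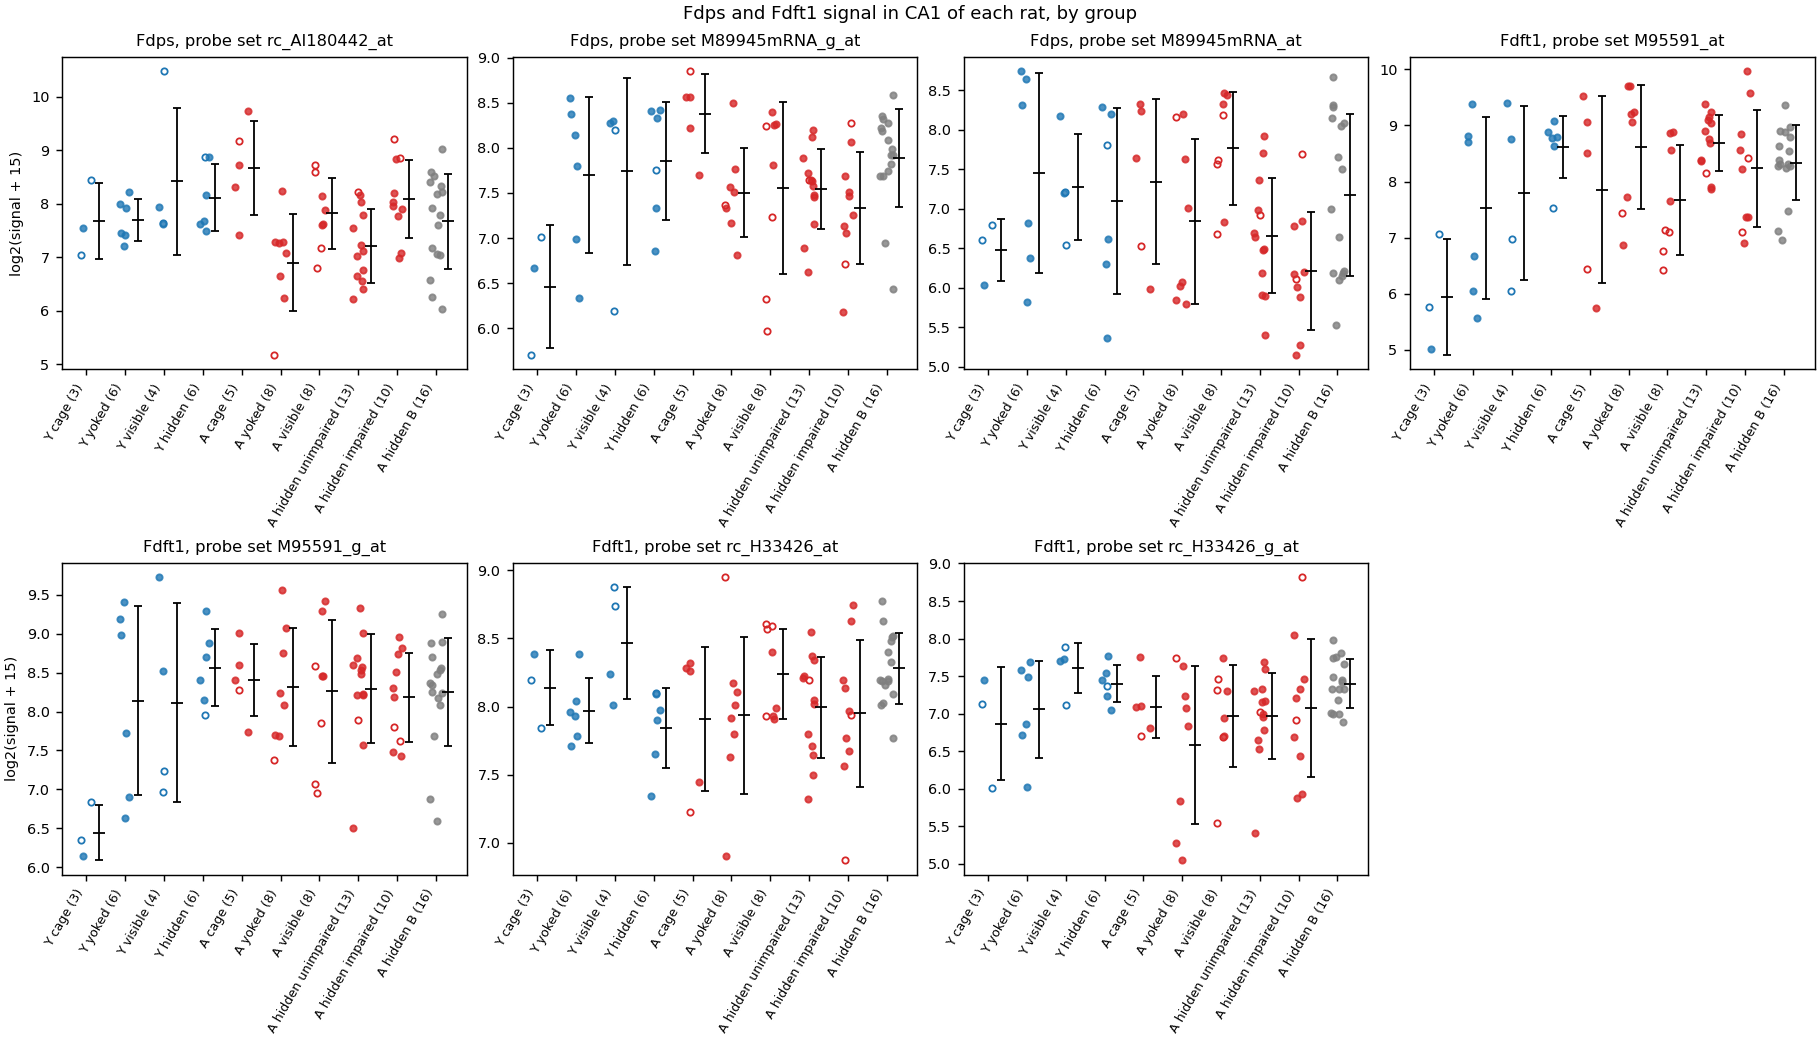
Log2(signal + 15) of the 3 Fdps and 4 Fdft1 probe sets, 1 point per rat, by group (Y young, A aged, number of arrays in brackets; blue young, red aged, grey B; open points are low-correlation arrays; bars are mean ± SD). Young cage rats have the lowest mean of the 10 groups on M89945mRNA_g_at (6.46), M95591_at (5.95) and M95591_g_at (6.44).

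Cell type markers were read in the same comparison of cage controls, where 17% of all probe sets were called. Of the oligodendrocyte markers, 9 tested of 12 listed, Mbp (4.61) and Mog (1.40) rose and Gjb1 (-1.46) fell, and the summed signal was 6245 to 8315 in young and 7634 to 27759 in aged cage rats. Of the 3 blood markers tested of 4 listed, the globins Hbb (5.24) and Hbb-b1 (3.73) rose, with sums of 376 to 1549 against 3185 to 17062. Of the endothelial and mural markers, Slco1a4 (-1.93) and Slc2a1 (-1.67) fell, with sums of 7136 to 12666 against 2807 to 4925. Of 7 microglia and macrophage markers 3 were called, all higher, with sums of 2989 to 9110 in young and 6279 to 8743 in aged cage rats. Of 8 interneuron markers tested of 10 listed 1 was called higher and 2 lower, with sums of 8151 to 33362 against 9410 to 13981. Of 10 astrocyte markers 1 was called, higher, with a list median of 0.86 and sums of 9040 to 48380 against 48805 to 77400. No CA1 marker tested, no dentate and CA3 marker (6 tested of 12) and no choroid plexus marker (3 tested of 7) was called. No marker of these lists was at 0, and their part in the cage differences of the members was not tested.

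Young hidden platform rats, compared with young cage controls, had a higher signal on 3 probe sets of Apoe and Fdft1. Of 12 member probe sets 3 were called, against 5.28% of all probe sets (4.35% higher, 0.934% lower): Apoe S76779_s_at by 4.0 ± 0.88 (adjusted p = 0.0191), Fdft1 M95591_at by 2.67 ± 0.78 (adjusted p = 0.0468) and Fdft1 M95591_g_at by 2.12 ± 0.62 (adjusted p = 0.0461). Each was higher in 6 of 6 hidden platform rats with no overlap. How many of all probe sets separate these 2 groups in this way was not counted, and 2 of the 3 young cage arrays were low-correlation arrays. On M95591_at the hidden platform rats had 170 at the lowest, 428.5 at the median and 526.2 at the highest, and on M95591_g_at 234, 363 and 612. This comparison shares its 3 young cage arrays with the age comparison in cage controls, so their values are not independent. Of the blood markers 2 of 3 were called higher here, with a list median of 2.70 and sums of 376 to 1549 in cage and 1800 to 7912 in hidden platform rats. The oligodendrocyte, astrocyte and microglia lists each had 1 marker called higher, and the endothelial and mural list had 1 called lower. Sums were 6245 to 8315 against 6236 to 24289 for oligodendrocyte, 9040 to 48380 against 23175 to 57723 for astrocyte, 2989 to 9110 against 3252 to 8464 for microglia, and 7136 to 12666 against 2727 to 5119 for endothelial and mural markers. No marker was at 0, and their part in the differences of the members was not tested.

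These calls changed with the arrays used. None remained with the 3′ to 5′ ratio in the model (Apoe 2.03, Fdft1 1.56 and 1.18) or without low-correlation arrays (1.91, 3.82 and 2.54, against 1 young cage array), and none when young cage rat 70 or 76 was left out. Apoe alone was called without young cage rat 74, young yoked rat 22, young visible rat 29 or any of young hidden rats 2, 3, 37, 38 and 40. The adjusted p of the 2 Fdft1 probe sets then lay between 0.051 and 0.105. Young yoked rats against cage controls gave no call among members (limma, 0.0953% of all called). An unadjusted p under 0.05 was found for 3 of 12 members and for 926 of all 5244 probe sets. The differences were 3.36 for Apoe S76779_s_at (adjusted p = 0.0779), 1.70 for Fdft1 M95591_g_at and 1.24 for Fdps M89945mRNA_g_at. These were 1.71, 0.91 and 0.41 with the 3′ to 5′ ratio in the model, and Apoe was 1.09 without low-correlation arrays, where again 1 young cage array is left. Leaving out 1 array moved the Apoe value between 2.37 and 4.49. It was called without young cage rat 74 (4.49, adjusted p = 0.0129) or young visible rat 65 (3.36, adjusted p = 0.0211). Hidden against visible platform rats and hidden against yoked rats gave no call among the young (limma, 0% of all probe sets called in either). An unadjusted p under 0.05 was found for 0 and 1 of 12 members and for 274 and 93 of all 5244 probe sets. The single member was Lpl L03294_g_at with -0.90 ± 0.43 between hidden and yoked rats.

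Between impaired and unimpaired aged rats no member was called, nor any of the 5244 probe sets (limma, 0% called; 677 had an unadjusted p under 0.05, and 1 of 12 members). That member was Fdps rc_AI180442_at, which had 59.6, 123 and 285 at the lowest, median and highest in unimpaired rats and 111, 241 and 579 in impaired rats. Its difference was 0.87 ± 0.31 (adjusted p = 0.312), higher in 8 of 10 impaired rats, while the other 2 Fdps probe sets had differences of -0.45 ± 0.36 and -0.21 ± 0.27. Lpl L03294_g_at differed by 0.18 ± 0.25, Apoe X04979_at by -0.47 ± 0.41 and Fdft1 M95591_at by -0.45 ± 0.39.

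Training in aged rats gave no call among members either. Aged hidden platform rats were compared with visible platform, yoked and cage rats. Of 12 members 2, 1 and 5 had an unadjusted p under 0.05 (limma), as had 598, 155 and 449 of all 5244 probe sets. In these comparisons 0.0191%, 0% and 0% of all probe sets were called. The smallest adjusted p was that of Fdps M89945mRNA_at against visible platform rats, -1.33 ± 0.35 (adjusted p = 0.130), lower in 22 of 23 hidden platform rats. Its lowest, median and highest were 87.8, 230 and 338 in visible platform, 27.3, 84.9 and 229 in unimpaired and 20.6, 56 and 192 in impaired rats, so the ranges overlapped. Against cage controls the 3 Fdps probe sets had differences of -1.03, -0.94 and -0.91, Apoe X04979_at had -1.08 ± 0.48 and Lpl L03294_g_at 0.59 ± 0.29. The Apoe value lay between -1.17 and -0.052 over the alternatives, the latter after quantile normalization, and was -0.65 without low-correlation arrays. Leaving out 1 array moved it between -1.35 and -0.76. Aged yoked rats against cage controls also gave no call (limma, 0.0191% of all called). An unadjusted p under 0.05 was found for 2 of 12 members and for 475 of all 5244 probe sets. The largest difference was -1.77 ± 0.43 on Fdps rc_AI180442_at (adjusted p = 0.150, lower in 8 of 8).

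The B rats were set beside the other aged hidden platform rats. Against unimpaired rats no member was called (limma, 0.0572% of all called). An unadjusted p under 0.05 was found for 0 of 12 members and for 376 of all 5244 probe sets. Against impaired rats no member was called where 12% of all probe sets were. There 3 of 12 members had an unadjusted p under 0.05 (limma), as had 1685 of all 5244 probe sets. The nearest was Fdps M89945mRNA_at, 0.96 ± 0.35 (adjusted p = 0.0595), which had 31.4, 140 and 391 at the lowest, median and highest in B rats. It passed in 6 of 9 alternatives, up to a difference of 1.42. It also passed without B rat 10, 14, 17, 86 or 91 or without impaired rat 52, with differences of 1.02 to 1.07. In those 6 alternatives 426 to 782 of all 5244 probe sets were called, or 1864 of 8740 with no filter. Fdps M89945mRNA_g_at had 0.55 ± 0.24 (adjusted p = 0.108) and Lpl L03294_g_at -0.52 ± 0.22 (adjusted p = 0.0958).

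Other genes of these pathways were read in the age comparison, where 5.13% of all probe sets were called. Of the cholesterol synthesis genes 14 of 21 listed were tested, counting Fdps and Fdft1 by their brightest probe set, and none was called. Their median difference was -0.18 against -0.06 over all genes. The 2 with the smallest p were Mvk, mevalonate kinase (0.45 ± 0.20, adjusted p = 0.182), and Acat2, which makes acetoacetyl-CoA (-0.32 ± 0.17, adjusted p = 0.259). Of 7 tested of 15 genes for sterol sensing none was called. Nr1h2, the oxysterol receptor LXR-beta, had 0.48 ± 0.15 (adjusted p = 0.0505), and Insig1, which holds SREBP in the endoplasmic reticulum, -0.48 ± 0.20 (adjusted p = 0.136) on its brightest probe set and 0.40 on another.

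Among lipoproteins, lipases and receptors, 13 of 26 genes were tested, with Apoe counted by X04979_at. Lpl fell and Apod, a lipocalin that binds small lipids, rose by 0.79 ± 0.21 (adjusted p = 0.0182), and the median was 0.07. Of 13 tested of 18 genes for fatty acid synthesis and binding, the acyl-CoA synthetases Acsl4 (-0.71 ± 0.19, adjusted p = 0.0182) and Acsl1 (-0.50 ± 0.16, adjusted p = 0.0417) fell, and the median was -0.07. Other probe sets of both went the opposite way without passing, by 0.44 for Acsl4, and by 0.09 and 0.43 for Acsl1. Of 6 tested of 15 genes for cholesterol storage, export and turnover none was called, the 2 with the smallest p being Tspo (0.37, adjusted p = 0.236) and Dbi (-0.32, adjusted p = 0.332).

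In aged against young cage controls, where 17% of all probe sets were called, 5 genes of these lists were called, which is no more than that share. Besides Lpl these were Apod (2.58), Nr1h2 (1.11) and Dhcr7 (1.29), a late enzyme of cholesterol synthesis, all higher, and Acsl1, which fell by 1.37 on the log2 scale. A second Dhcr7 probe set had 0.43. In young hidden platform rats against cage controls Apod rose by 2.12. In B against impaired rats, where 12% of all probe sets were called, Mvd (0.80), Acat2 (0.64) and Nr1h2 (0.49) were higher, and Ebp (-0.54), Scd (-0.89), Apob (-1.18), Vldlr (-0.84) and Rxrg (-0.71) were lower. Of the 14 synthesis genes tested 2 were called higher there and 1 lower. In impaired against unimpaired rats no gene of the 5 lists was called.

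Members were compared with each other across rats, as log2 values minus their group mean on the brightest probe set of each gene. Of 6 pairs, 1 passed: Apoe X04979_at and Fdft1 M95591_at went in opposite directions (Pearson r = -0.533, Spearman rho = -0.627, n = 79, permutation test, adjusted p = 0.00012 and 6e-05). Without the 2 rats farthest from the Apoe median r was -0.595, and without low-correlation arrays it was -0.698 (n = 65). Within groups of at least 10 rats r was -0.715 in unimpaired, -0.331 in impaired and -0.344 in B rats, and none of these passed over 18 tests (adjusted p = 0.115, 0.696 and 0.447). After quantile normalization of the arrays the sign turned, to r = 0.546 (adjusted p = 6e-05), so the relation has no settled direction. The pairs of Lpl with Apoe, Fdps and Fdft1 had r of -0.042, -0.110 and -0.188, and Fdps had 0.210 with Apoe and -0.172 with Fdft1.

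**Figure D5:**
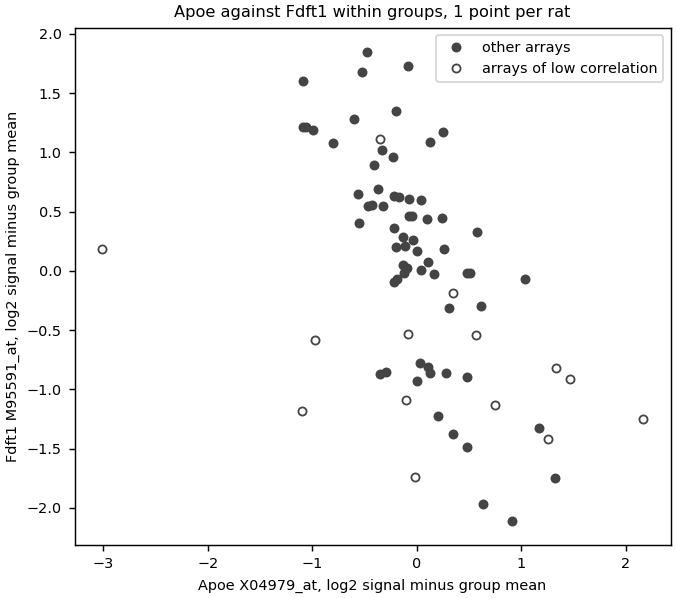
Apoe X04979_at (horizontal) against Fdft1 M95591_at (vertical), each as log2(signal + 15) minus its group mean, 1 point per rat over 79 rats, open points for low-correlation arrays. Rats with higher Apoe have lower Fdft1 on the deposited scale (r = -0.533), a slope that turned to r = 0.546 after quantile normalization.

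Probe sets of 1 gene agreed to different degrees within groups. The 2 Fdft1 probe sets with M95591 in their names had r = 0.664 and the 2 Fdps probe sets with M89945 r = 0.417 (permutation test, adjusted p = 6.5e-05 and 0.00101, n = 79). Fdps rc_AI180442_at had r of 0.125 and -0.162 with these, and Fdft1 rc_H33426_at had 0.016 with M95591_at, none past the threshold. The called Fdft1 differences thus stand on 1 pair of probe sets only.

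The genes most like each member over the 65 rats without low-correlation arrays, among 3232 other genes, were ranked by Pearson r of group-centred values, as a description. For Lpl they were Rb1 (0.660), Oat (0.630) and Acsl4 (0.630), and for Fdps Bdnf (0.697), Oaz2 (0.685) and Eef1a1 (0.648). For Apoe they were Tuba1b (0.883), Cox8a (0.834) and COX3 (0.825), and for Fdft1 Actg1 (0.840), Gps1 (0.734) and Krtcap2 (0.728). The ranking was not repeated after quantile normalization, where the correlation of Apoe with Fdft1 turned its sign. No member was among the 3 most like another, the highest rank being that of Lpl for Fdps, 342nd of 3232 with r = 0.256.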

How the data were processed

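Messenger RNA of 79 animals was measured on 1 array each. The deposited unit is intensity: the authors gave a linear signal for each probe set, and the submitters' processing notes name MAS5. Trimmed mean signals lay between 499.3 and 500.0, so the authors had scaled the arrays alike before deposit. Median signals of the arrays lay between 98.9 and 347.1, so this scaling left their distributions unlike. The number of arrays limits the precision. Groups came from the sample titles, and replicates are separate animals per the series' design text. Amplification over 2 rounds can lower probe sets far from the 3′ end where RNA is less intact.

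Left out were 59 controls and, by mean signal, the dimmest 40% of probe sets. The linear models of limma 3.58.1 (R 4.3.3; lmFit, eBayes with trend, two-sided) were fitted to log2(signal + 15), with the pseudocount at the rounded 10th percentile of the deposited values. For the age comparison treatment was an additive factor over 63 arrays, the within-treatment and interaction tests had 1 mean per age and treatment on the same arrays, and other comparisons used the 44 aged, the 19 young or, with B, the 60 aged arrays. Correlations used permutation tests with 100000 resamples within groups. Members and lists were chosen with earlier results of these data known. Every member probe set is named. Other list genes are named where called in a comparison (at most 6 per list), and otherwise the 2 with the smallest p in the age comparison, 1 probe set per gene (the brightest with a single symbol). Of the probe sets that are no controls 7018 had 1 symbol, 308 several and 1414 none. Alternatives were pseudocounts of 1 and 60, no filter or a 60% filter, quantile normalization, median centring, array weights, the 3′ to 5′ ratio as covariate, no arrays under a correlation of 0.85, 1 fit over all arrays, and leaving out each array. The fits were tested on simulated data.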

Additional observations from a re-analysis of the deposited data

Results flagged for a closer look

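In groups of 4 to 10 rats, 84 combinations of a member probe set and a group were examined for a rat far from the others (Dixon's test), and 10 values, from 8 rats, stood apart. Chance alone marks about 1 in 20 such groups. Of the 10 values, 6 were on low-correlation arrays. All values here are log2(signal + 15).

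For Lpl, aged cage rat 36 was low on L03294_g_at (8.906) and on rc_AI237731_s_at (7.718), and young yoked rat 59 was low on L03294_at (8.351). Neither of these 2 arrays had a low correlation. For Apoe, impaired rat 83 was low on both X04979_at (11.45) and S76779_s_at (10.6), aged yoked rat 63 was low on S76779_s_at (9.131), and young hidden rat 37 was high on X04979_at (14.73) in a group whose other 5 values lay within 14.36 to 14.47. The arrays of rats 83 and 63 had a low correlation and that of rat 37 did not. For Fdft1, young hidden rat 39 was low on M95591_at (7.527). For Fdps, young visible rat 30 was high on rc_AI180442_at (10.48) and young visible rat 65 low on M89945mRNA_g_at (6.19). The arrays of rats 39, 30 and 65 had a low correlation.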

How the results depend on the processing

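No paired analysis was possible because animal numbers are not shared between groups. The 3 age calls were kept in all alternatives (Lpl L03294_g_at -1.04 to -0.96, L03294_at -0.93 to -0.73, Apoe S76779_s_at 1.48 to 1.83), also leaving out any 1 array, and their number stayed 3. Counts of called members depended on the alternative elsewhere, and the cause was not tested. Array weights gave 7 calls in cage rats, 3 in yoked, 3 in visible and 2 in hidden platform rats, and 7 for the interaction. Of all 5244 probe sets, 2514, 249, 556, 189 and 1850 were called there, in the same order. With these weights aged hidden against visible, aged hidden against cage and aged yoked against cage rats had 3, 2 and 1. There 513, 118 and 75 of all probe sets were called. Young hidden and young yoked against cage rats had 5 and 4, with 1484 and 1221 of all called. B against unimpaired and impaired rats had 2 and 3, with 436 and 782 of all called. The 3′ to 5′ ratio as covariate gave 1 in cage rats, 1 in visible platform rats and 1 for B against impaired rats. Of all probe sets 80, 14 and 533 were called there. This covariate gave 0 for young hidden against cage rats, with 0 of all called. Without low-correlation arrays the counts were 3 in yoked rats and 1 for B against impaired rats. Of all probe sets 341 and 490 were called there. For young hidden against cage rats this alternative leaves 1 young cage array. Young hidden against cage rats gave 1 with a pseudocount of 60, with no filter, after quantile normalization and after median centring. Called over all were 248, 204 (of 8740), 288 and 145 probe sets there. B against impaired rats gave 1 with no filter, 3 after quantile normalization and 1 after median centring. Called over all were 1864 (of 8740), 426 and 686 probe sets there. The interaction gave 1 with a 60% filter and 2 in 1 fit over all 79 arrays, where young yoked against cage rats gave 2. Over all probe sets the interaction had 43 of 3496 and 190 of 5244 called, and young yoked against cage rats 303. Leaving out 1 array gave 2 to 6 calls in cage rats (2 without young cage rat 70), 0 to 1 in yoked rats (1 without young yoked rat 59), 0 to 3 for young hidden against cage rats, 0 to 1 for young yoked against cage rats, 0 to 1 for B against impaired rats, and 0 to 2 for the interaction (2 without young visible rat 65; 1 without young hidden 2, impaired 83, aged visible 67 or 68, young visible 30, aged yoked 63 or young cage 74). In the age comparison Fdft1 rc_H33426_at turned to 0.076 with array weights, and Fdps M89945mRNA_g_at to -0.24 with weights, -0.022 with the ratio as covariate and -0.13 without low-correlation arrays, and leaving out 1 array moved it between -0.070 and 0.105 (below 0 without young hidden rat 2, yoked 60, visible 65, cage 70 or cage 74). Quantile normalization changed the correlation of Lpl with Apoe to -0.414 (adjusted p = 0.00216) and that of Apoe with Fdft1 to 0.546, and without low-correlation arrays that of Lpl with Fdps was 0.256 (adjusted p = 0.135). The annotation limits Hmgcs1, a symbol that no probe set carried in it. Whether any of the 1414 probe sets without a symbol measures this gene was not examined. The 3 young cage arrays limit every comparison with that group.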
